A study of Mus musculus with 9 samples.

Results

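Signalling by the interleukin-6 (IL-6) family of cytokines was described in AML12 cells through 10 genes chosen by name: the ligands *Il6* and *Lif*, the receptor chains *Il6st*, *Il6ra*, *Lifr* and *Osmr*, the kinases *Jak1* and *Jak2*, the transcription factor *Stat3* and the inhibitor *Socs3*. A gene was taken as measured when its GENCODE M1 identifier had a row in the tables of mean expression. By this rule 9 of the 10 genes were listed in both tables, out of 13643 genes in either table and 13259 in both, and *Il6* (ENSMUSG00000025746.7) was listed in neither.

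AML12 is a hepatocyte line established from the liver of a mouse transgenic for transforming growth factor alpha, and it is a single line. The cells were infected for 5 days with lentivirus, and RNA was sequenced from 3 control libraries, 3 libraries with *Srrm2* shRNA 1 and 3 libraries with *Srrm2* shRNA 2. All 3 groups grew in medium with 10% serum, an insulin, transferrin and selenium supplement and 0.1 μM dexamethasone, a glucocorticoid. *Srrm2* encodes a scaffold protein of nuclear speckles, and the study asked what changes when it is depleted. No label states that the replicates were separate cultures.

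The values used here are the authors' mean normalized counts, 1 for each gene and table. The table of shRNA 1 averages the control and the shRNA 1 libraries, and the table of shRNA 2 averages the control and the shRNA 2 libraries. The other columns of these tables hold the authors' own comparisons with the control and were not used, so no change against the control is given here, for *Srrm2* or for any other gene. No value per library was used. The depth of single libraries is therefore unknown, no spread between replicates can be given, and no difference below was tested. *Srrm2* itself had a mean normalized count of 3428 in the table of shRNA 1 and 3759 in that of shRNA 2, which does not check the knockdown because both means contain the control.

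IL-6 and its relatives bind receptor chains, some used by 1 cytokine and some by several, together with the shared chain gp130, which *Il6st* encodes. Janus kinases held by the receptors phosphorylate STAT3, which enters the nucleus and switches on target genes, among them *Socs3*, whose product blocks the receptor again. In the liver this pathway is known as the main driver of the acute-phase response, in which hepatocytes secrete proteins such as serum amyloid A, haptoglobin and fibrinogen. Glucocorticoids are known to raise several of these products together with IL-6.

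The label of the cells was compared with marker genes. Of 14 hepatocyte markers 12 were listed in both tables, with *Alb*, *Ttr*, *Apob* and *Hnf4a* at mean normalized counts of 2151, 2497, 20192 and 1498 in the table of shRNA 1. *Apoa2* and *Cyp2e1* were not listed, and the adult liver enzymes *Tat* and *Cps1* were low, at 4.37 and 26.2. Of 7 markers of fetal or ductal liver 6 were listed in both tables. In the table of shRNA 1, *Krt19* had a mean of 2851, *Krt7* 1351, *Sox9* 669.7 and *Spp1* 4033. *Afp* and *H19* were low there, at 10.8 and 3.02, and *Epcam* was not listed. None of 5 endothelial markers was listed. Of 6 stellate and fibroblast markers 2 were listed, *Des* with a mean of 8.03 and *Col1a1* 3.85 in the table of shRNA 1. Of 10 names of leukocyte markers 4 were listed in both tables. In the table of shRNA 1 the common antigen *Ptprc* had a mean of 5.30, *Csf1r* 26.2 and *Cd68* 25.1. *Cd14*, which hepatocytes also make, had 490.5. The macrophage gene *Emr1* and the lymphocyte gene *Cd3e* were not listed. In bulk RNA, fewer cells of a type and less RNA per cell cannot be told apart.

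Levels of different genes were compared per exon kilobase. The mean normalized count was divided by the length of the gene's merged exons and scaled so that all genes of a table sum to 1000000, and this quantity is called the level below. To compare the tables, the means of the shRNA 2 table were divided by a common factor of 0.07 on the log2 scale, the median over the 11451 genes whose mean was 10 or more in both. The result is given as a centred log2 ratio, negative where the shRNA 2 table is lower. To relate the means to the hairpin groups, it was assumed that both tables hold the same 3 control libraries. It was also assumed that the common factor puts these libraries on 1 scale. Under these assumptions the control drops out of the difference between the means, and 2 times that difference is the difference between the hairpin group means. The same assumptions make the ratio of the means a lower bound on the fold between the hairpin groups. The titles name 3 control libraries, but the label of only 1 of them names both tables, and neither assumption was tested.

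Of the ligands, *Lif* was the one listed. *Lif* encodes leukemia inhibitory factor, which signals through the *Lifr* product and gp130, and its mm9 position is 4157560 to 4172517 on the + strand of chromosome 11. Its mean normalized count was 344.5 in the table of shRNA 1 and 350.6 in that of shRNA 2. With the tables on 1 scale the centred log2 ratio was -0.05, and 37.3% of all genes had a lower one. The level of *Lif* was 47.2 in the first table and 46.0 in the second, above that of 66.7% and 66.1% of the listed genes. *Il6* lies on chromosome 5 from 30339701 to 30346508, and without a row its level is unknown here. The lowest mean normalized counts in the tables were 1.56 and 1.92.

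Of the 4 receptor genes, *Osmr* was the one whose larger mean exceeded the smaller by over 25%, beside 8.29% of all genes. The other 3 were inside that limit. All 4 had negative ratios with every centring tried, as had 5725 of the 11451 genes with the centring used here and from 31.5% to 50.3% of them with the 4 others. *Osmr* encodes the chain that pairs with gp130 to bind oncostatin M, and it lies on the - strand of chromosome 15 from 6763577 to 6824313. The mean normalized count of *Osmr* was 107.3 in the table of shRNA 1 and 84.2 in that of shRNA 2, or 80.1 on the scale of the first. Its centred log2 ratio was -0.42, and 2.11% of all genes had a lower one. Under the assumption of shared controls on 1 scale, the mean of the shRNA 1 libraries exceeded that of the shRNA 2 libraries by 54.6 normalized counts. The lower bound on the fold depended on the centring too and ran from 1.28 without centring to 1.34, with 46.3 normalized counts between the groups without centring. With a mean near 100 the gene is among the less deeply counted ones. For the 3601 genes with a mean of 10 to 100 over both tables, the central 95% of the ratios ran from -0.49 to 0.55, a range that holds the value of *Osmr*. *Osmr* lay at the upper end of these means, and the range for means of 100 to 1000, from -0.35 to 0.30, does not hold it.

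*Il6ra* encodes the chain that binds IL-6, and *Lifr* a chain that leukemia inhibitory factor uses together with several of its relatives. *Il6ra*, on chromosome 3 from 89673246 to 89717084 on the - strand, had mean normalized counts of 145.0 and 127.4 and a centred log2 ratio of -0.26. *Lifr*, on chromosome 15 from 7079559 to 7147489 on the + strand, had 138.3 and 122.4 and a ratio of -0.25. These 2 genes were close to each other in mean count and in ratio, and both lay within that range of the 6556 genes with means of 100 to 1000. *Il6st*, on chromosome 13 from 113265216 to 113297068 on the + strand, had mean normalized counts of 2256 and 2158. Its centred log2 ratio of -0.14 was the nearest to 0 among the receptor genes.

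On the per-length scale gp130 stood far above the other chains. The level of *Il6st* was 258.2 in the table of shRNA 1 and 236.7 in that of shRNA 2, above 95.6% and 95.1% of the listed genes. It was 9.99 times the level of *Il6ra* in the first table and 10.9 times in the second. Against *Osmr* the factor was 19.5 and 23.8, and against *Lifr* 32.3 and 35.0. The last factor was 17.4 and 18.8 with the mean length of a gene's transcripts in place of merged exons. The levels of the other chains were 25.8 and 21.8 for *Il6ra*, 13.2 and 9.95 for *Osmr*, and 7.98 and 6.77 for *Lifr*. The level of the ligand *Lif* was 5.91 times that of the receptor chain *Lifr* in the first table and 6.80 times in the second.

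The kinases and the transcription factor differed little between the tables. *Jak1* and *Jak2* encode Janus kinases that attach to gp130 and its partners. *Jak1*, on chromosome 4 from 100824972 to 100937887 on the - strand, had mean normalized counts of 1624 and 1727 and a centred log2 ratio of 0.02. *Jak2*, on chromosome 19 from 29326318 to 29387570 on the + strand, had 1702 and 1718 and a ratio of -0.06. *Stat3*, on chromosome 11 from 100746412 to 100800854 on the - strand, had 838.7 and 877.4 and a ratio of -0.0072. With the centring used here this was the ratio nearest to 0 among the 9 genes. Without centring *Stat3* was at 0.07, farther from 0 than *Jak2* at 0.01 and *Lif* at 0.02. Of all genes, 95.9% differed more than *Stat3* in either direction, 90.5% more than *Jak1* and 68.3% more than *Jak2*. Merged exons of *Stat3* overlap those of *Stat5a* on the other strand over 72 bases, and those of *Jak1* overlap *Raver2* over 4 bases. The libraries are described as strand-specific, but the strand setting of the counting is not given in the sources used here.

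*Socs3*, the feedback inhibitor, lies on the - strand of chromosome 11 from 117827393 to 117831361. Its mean normalized count was 143.7 in the table of shRNA 1 and 136.6 in that of shRNA 2. The centred log2 ratio was -0.15, with 16.8% of all genes lower. The level of *Socs3* was 29.6 and 27.0, and that of *Stat3* was 1.77 and 1.95 times as high. This factor rose to 3.79 and 4.17 with the mean transcript length.

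STAT proteins bind the palindrome TTCNNNGAA. It was searched in windows from 250 bases before to 50 bases after each start site in RefSeq (build GRCm38.p6), where it reads the same on both strands. All 10 genes matched a RefSeq entry, with 11 windows, and 1 of these, that of *Socs3*, held the motif, while 8.30% of all 32851 windows did. Among the windows of 77 further start sites of the other pathway genes described below, 9 held it, those of *Cish*, *Fga*, *Fgb*, *Gab1* (a pair of windows), *Hamp*, *Icam1*, *Il31ra* and *Irf1*. The sites of *Socs3* and of the 4 hepatocyte targets with a match and a mean of 10 or more in both tables are shown. The centred log2 ratios of these targets were -0.48 for *Fga*, -0.60 for *Fgb*, -0.0055 for *Icam1* and 0.20 for *Irf1*, so that genes with a match lay on both sides of 0. Capitals mark the motif.
Socs3: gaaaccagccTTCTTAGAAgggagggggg
Fga: aggcccccatTTCCTGGAAtgtagattcc
Fgb: gactcaatgaTTCGAGGAAccccctgtgt
Icam1: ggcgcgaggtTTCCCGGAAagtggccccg
Irf1: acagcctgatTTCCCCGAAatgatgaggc
The *Socs3* sequence is chr11:117969502-117969530 on the - strand of GRCm38.p6, and its motif begins 154 bases before the start site. That of *Fga* is chr3:83025909-83025937 on the + strand, with the motif 234 bases before the start, and that of *Fgb* is chr3:83050007-83050035 on the - strand, 162 bases before it. *Icam1* has its site at chr9:21015888-21015916 and *Irf1* at chr11:53769914-53769942, both on the + strand, with motifs 42 and 90 bases before the start. A match of letters is a description and does not show binding. The motif with 1 more base in its middle, TTCNNNNGAA, also searched, was in 6.95% of all windows and in 0 of the 11.

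The order of the 9 levels was the same in both tables: *Il6st*, *Jak2*, *Jak1*, *Stat3*, *Lif*, *Socs3*, *Il6ra*, *Osmr* and *Lifr*. Both means contain control libraries, so the orders of the tables are not independent of each other. Neighbours in the order could not be compared with a replicate error. The order depended on the length used. With the longest annotated transcript in place of merged exons, *Jak1* passed *Jak2* in the table of shRNA 2 (levels of 168.8 and 163.7). With the mean length of a gene's transcripts, which is shortened by partial transcripts, *Jak1* came first at 389.8 in the table of shRNA 1, followed by *Stat3* at 153.3 and *Il6st* at 133.6, and *Lifr* at 7.70 passed *Osmr* at 6.85. The annotation holds 14 transcripts of *Stat3* and 8 of *Jak1* but 1 each of *Il6st*, *Il6ra* and *Osmr*.

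**Figure D1:**
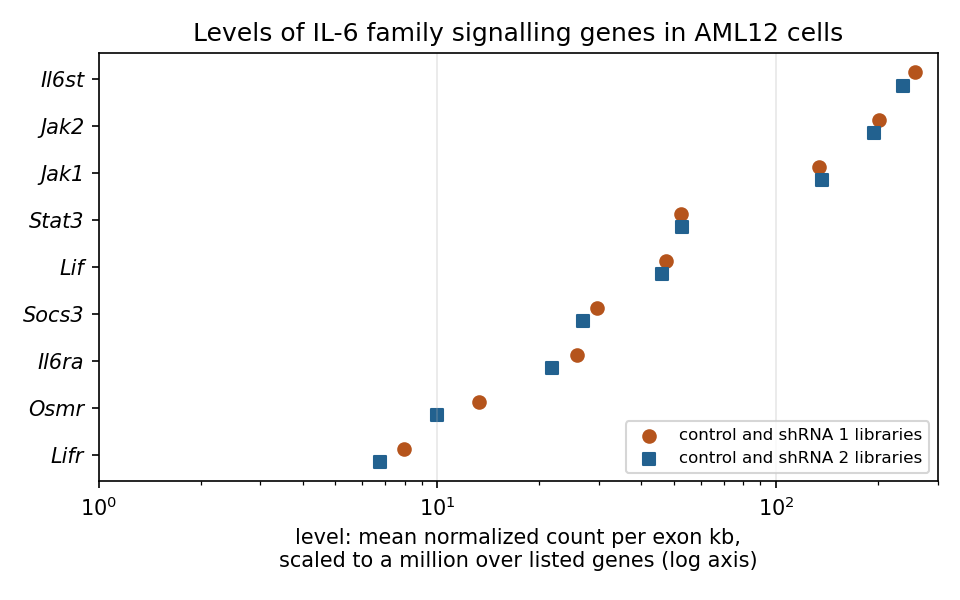
Levels of the 9 listed genes, as the mean normalized count per exon kilobase scaled to 1000000 over the listed genes, on a log axis. Circles stand for the mean of control and shRNA 1 libraries and squares for that of control and shRNA 2 libraries, with no error since no value per library was used; *Il6st* is highest at 258.2 and 236.7 and *Lifr* lowest at 7.98 and 6.77.

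A gene was counted as different between the tables when the larger of its means exceeded the smaller by over 25% after centring. Of the 9 genes 1, *Osmr*, was past it and lower in the table of shRNA 2, and 0 were higher. Among all 11451 genes 8.29% were past it in either direction, 4.41% lower and 3.88% higher, and 1 of 9 genes is close to these shares. *Il6ra* lay nearest to the limit from inside, with the larger mean 19.6% above the smaller. The median centred log2 ratio of the 9 genes was -0.14, against 0 by construction for all genes. In the table of shRNA 2, 8 of the 9 were lower, as were 5725 of the 11451 genes, with the same 8 of 9 when centred on genes with a mean of at least 100 or on all genes, 7 when centred on the summed means and 5 without centring.

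**Figure D2:**
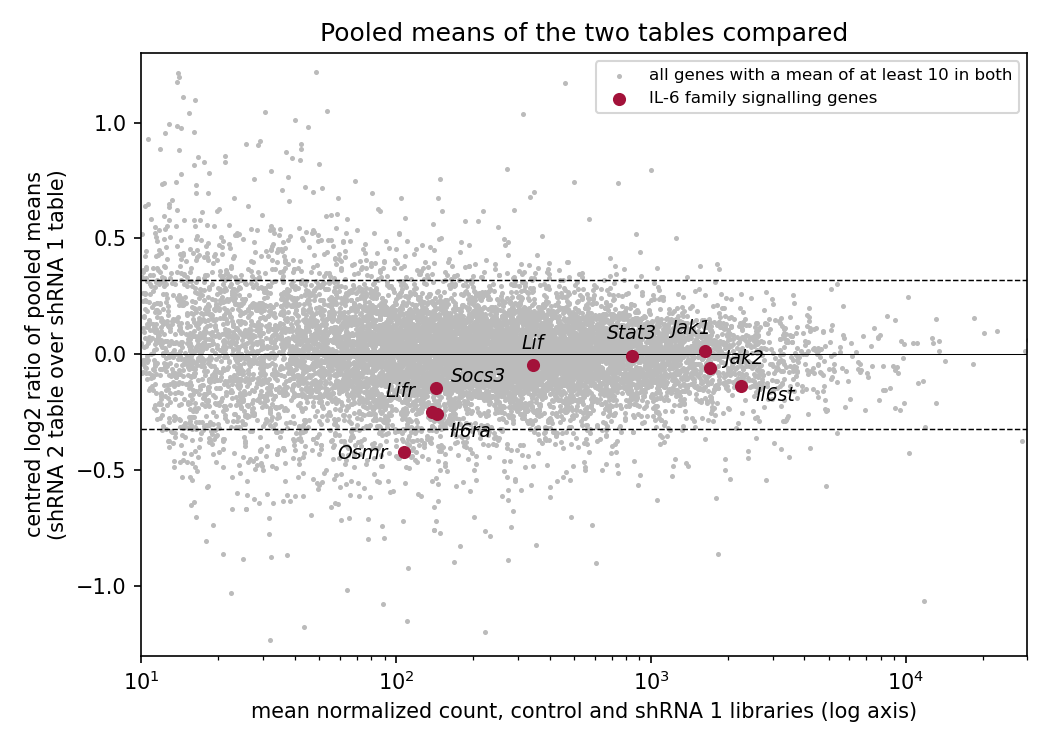
Centred log2 ratio of the mean normalized count in the table of shRNA 2 over that of shRNA 1, against the mean in the table of shRNA 1 on a log axis. Grey points are genes whose mean was 10 or more in both (21 lie outside the axes), red points the 9 IL-6 family signalling genes, and dashed lines mark 25%; *Osmr* at -0.42 is the only red point beyond them.

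The wider pathway was described with lists of 77 further genes, of which 64 were listed in both tables and 56 reached a mean of 10 in both. Of these 56 genes 7 were lower by this limit in the table of shRNA 2, and 2 were higher, beside 4.41% and 3.88% of all genes. The lists were chosen with earlier results of these data known, so these counts are a description and not a test. Of 9 other ligands 4 were listed, and 5, including *Osm*, which encodes oncostatin M, were not. *Clcf1*, which encodes a cytokine that signals through gp130, the *Lifr* product and the ciliary neurotrophic factor receptor, had mean normalized counts of 904.0 and 1292, a centred log2 ratio of 0.44 and levels of 145.1 and 198.8. Its level was 3.07 times that of *Lif* in the first table and 4.32 times in the second. *Ctf1*, which encodes cardiotrophin-1, was also higher in the table of shRNA 2, with a ratio of 0.34 at mean counts of 11.1 and 14.8. The receptor gene *Cntfr* was not listed.

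Of 5 other receptor genes *Il11ra1*, the receptor chain of IL-11, was the one listed, with mean normalized counts of 32.8 and 38.8. The other Janus kinases were below *Jak1* and *Jak2*, with levels of 46.9 and 40.6 for *Tyk2* and of 10.9 and 11.4 for *Jak3*. Of 6 other STAT genes 5 were listed and none differed by over 25%, beside 8.29% of all genes. *Stat6* had the highest level of these, at 130.1 and 126.7, followed by *Stat2* and *Stat5b* at 76.6 and 32.2 in the table of shRNA 1. Of 14 other inhibitors 13 could be compared and none differed by over 25%, beside the same 8.29% of all genes. Their ratios ran from -0.24 for *Socs2* to 0.15 for *Socs7*. *Ptpn1*, *Socs4* and *Pias2* had the highest levels of that list, at 63.2, 53.3 and 42.1 in the table of shRNA 1, while *Socs1*, another feedback inhibitor of Janus kinases, had a mean normalized count of 2.08 in that table and no row in the other.

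Adaptors that link gp130 to the MAP kinase branch were all listed. *Ptpn11*, which encodes the phosphatase SHP2, *Grb2* and *Shc1* had the highest levels of them, 159.5, 93.9 and 82.8 in the table of shRNA 1. *Gab1*, the docking protein of that branch, was the one of the 6 past the 25% limit, beside 8.29% of all genes. It had mean normalized counts of 54.8 and 46.0 and a centred log2 ratio of -0.33. Of the genes with a mean of 10 to 100 over both tables, 16.4% were past that limit. Genes that shed or degrade the receptors were listed in full as well. None of the 4 differed by over 25%, beside the same 8.29% of all genes. The sheddase genes *Adam10* and *Adam17* had ratios of -0.09 and -0.0021, and the ubiquitin ligase genes *Stub1* and *Cbl* -0.20 and -0.02.

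Of 31 targets in hepatocytes 29 were listed in both tables and 23 could be compared. Of these, 6 were past the 25% limit and lower in the table of shRNA 2 and 0 were higher, beside 4.41% and 3.88% of all genes. The lower share was 7.69% for genes with means of 10 to 100, 3.07% for 100 to 1000 and 2.09% above. This list too was chosen with earlier results of these data known, so the count is not a test. Of these 23 targets 17 had a negative ratio and 6 a positive one, with a median of -0.09. *Lcn2*, an iron-binding acute-phase protein, had the largest ratio, with mean normalized counts of 11805 and 5930 and a centred log2 ratio of -1.07. The fibrinogen genes *Fga* and *Fgb* had 87.2 and 65.6, and 121.8 and 84.3, with ratios of -0.48 and -0.60. The serum amyloid genes *Saa1* and *Saa3* had ratios of -0.60 and -0.35, and *Orm1*, which encodes an acid glycoprotein, -0.39. *Saa1*, *Saa3* and *Orm1* have close relatives, and keeping unique reads alone can lose reads of such genes. The plasma proteins *Hp*, *Hpx*, *Cp* and *Crp* had ratios of -0.23, -0.02, -0.24 and -0.05, inside the limit. Early targets of STAT3 were also inside it, in both directions. *Cebpb*, a factor that binds acute-phase promoters, was at -0.25, *Junb* at -0.09, *Mcl1* at -0.01 and *Icam1* at -0.0055. Higher in the table of shRNA 2 were *Il4ra* at 0.10, *Myc* at 0.18, *Pim1* at 0.19, *Irf1* at 0.20, *Fos* at 0.25 and *Bcl3* at 0.32, the last just under the limit.

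**Figure D3:**
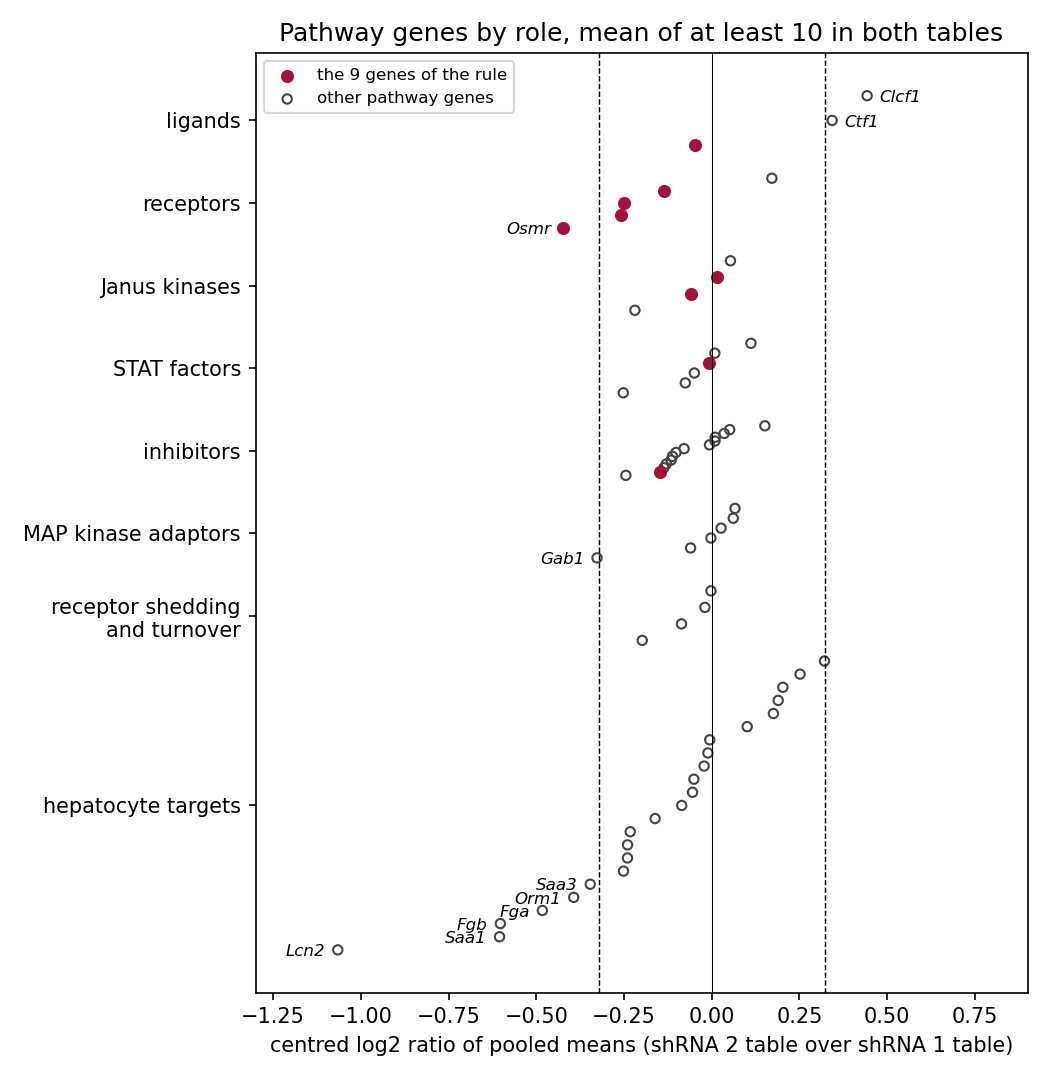
Centred log2 ratio of the mean normalized count in the table of shRNA 2 over that of shRNA 1, by role in the pathway, for genes whose mean was 10 or more in both. Filled red points are the 9 genes of the rule and open points other pathway genes, spread vertically by rank for legibility; named genes lie beyond the dashed lines at 25%, with *Clcf1* at 0.44 and *Lcn2* at -1.07 at the ends.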

How the data were processed

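The authors mapped reads to mm9 with TopHat2, counted unique concordant pairs per GENCODE M1 gene with HTSeq, and used DESeq2 version 1.8.2 with default parameters. The deposited mean normalized count is a signal averaged over the libraries of a comparison, and summed to 6144608 and 6393456. The further columns of the authors' tables hold their log2 fold change, standard error, statistic, p-value and adjusted p-value, and were not used.

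Libraries were grouped by title. All identifiers matched GENCODE M1 on NCBIM37, the assembly of mm9, which gave symbols, positions and exon lengths. Genes named are the 10 genes, *Srrm2*, markers, and from 8 pathway lists those past 25% and the 3 with the highest level; others named were chosen after their values were seen. Members and lists were chosen with earlier results of these data known. The computation of the ratio was checked on simulated means without noise, built with the same control in both tables. That check cannot test the assumption of shared controls or the spread between libraries. Alternatives were other lengths, centrings, limits (10%, 50%) and minimum means (none, 100). Python 3.11.15, numpy 2.4.6, pandas 2.3.3 and matplotlib 3.10.9 were used.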

Additional observations from a re-analysis of the deposited data

How the results depend on the processing

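The centred log2 ratio of each of the 9 genes stayed on its side of the 25% limit under all 4 other centrings. The count of these genes lower past the limit moved from 1 to 4 at 10%, and to 0 at 50% and with a minimum mean of 100, which *Osmr* does not reach in the table of shRNA 2. Among the other pathway genes the lower ones moved from 7 to 16 at 10%, 3 at 50%, 13 with no minimum mean, 3 with a minimum of 100 and 4 without centring. The higher ones moved from 2 to 9 at 10%, 0 at 50%, 1 with a minimum of 100 and 4 without centring. Across all genes, leaving out the centring moved the split from 505 lower and 444 higher to 294 and 787. Of all 11451 genes, 18.2% were lower past 10% and 36.0% were past it in either direction. At 50% these shares were 0.72% and 1.55%.

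With the mean transcript length in place of merged exons, levels in the tables of shRNA 1 and shRNA 2 moved by over 1.5 times for *Il6st* (133.6 and 122.3), *Il6ra* (13.4 and 11.2), *Osmr* (6.85 and 5.14), *Stat3* (153.3 and 153.4), *Jak1* (389.8 and 396.5) and *Jak2* (105.3 and 101.6). *Il6st*, *Il6ra* and *Osmr* have 1 annotated transcript each, so their own length was the same under both settings. Their levels moved only because the levels of all genes were rescaled to the same sum. The factors of *Il6st* over *Il6ra* and over *Osmr* did not change. *Lif*, *Lifr* and *Socs3* have 3 transcripts each, and their own lengths did change. Their levels stayed within 1.5 times, and with the longest transcript those of all 9 genes did. No paired analysis was possible because no value per library was used, and for the same reason no replicate was left out. Precision by depth is unknown.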

Other observations

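Several pathway genes were listed in both tables with a mean normalized count under 10 in at least 1 of them and were left out of the counts past 25% except where no minimum mean was set. *Hamp*, which encodes the iron hormone hepcidin, had 4.01 in the table of shRNA 1 and 16.8 in that of shRNA 2. *Il11*, an IL-6 family cytokine, had 14.5 and 7.73, and *Saa2* had 10.2 and 4.69, in the other direction. *Cntf*, *Tat*, *Serpina3n* and *Orm2* were also lower past 25% in the table of shRNA 2. *Hamp* was the only one of these genes higher past 25%. *Fgg*, the third fibrinogen chain gene, had 3.96 and 3.82, far below the means of *Fga* and *Fgb* in each table. These values carry no error, and the differences were not tested.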
